A study of Mus musculus with 4 samples.

Results

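Long noncoding RNA (lncRNA) genes that stand apart from coding genes were examined in chromatin immunoprecipitation sequencing of mouse thymus. The RefSeq table of the mouse assembly GRCm38.p6 lists 12408 lncRNA genes on chromosomes 1 to 19, among 47042 genes of all kinds. A gene was taken when it overlapped no protein-coding gene and had both ends over 5 kb from the ends of every coding gene, which left 6279 lncRNA genes. All samples came from thymus of mice homozygous for the germline p53 allele AD (p53 AD/AD), whose p53 forms dimers, collected at 4 weeks of age. The study made 2 libraries for p53 and 1 input library with 50 nt reads, and 1 library for PPAR-alpha with 75 nt reads. Antibody and read length therefore changed together between p53 and PPAR-alpha and cannot be told apart. The sources used here give no sex, strain or pooling of animals, and nothing in them says that the p53 libraries came from separate mice.

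The deposited data were 3 lists of summits, which are the bases of highest pile-up in called peaks, 1 for each immunoprecipitated library. The list of p53 replicate 1 held 3608 summits, that of replicate 2 held 4767 and that of PPAR-alpha held 4070. Each summit carries the authors' score, taken here for a −log10 p- or q-value, and the median score was 3.99, 3.62 and 4.70 in the same order. Read numbers were unknown, so scores of different lists are not on a common scale, and ranks are given within a list. The same cut of 5 was nevertheless used in every list, and the lower of the 2 p53 scores served to choose genes to name. Under 5 were 71.3%, 73.7% and 52.0% of the autosomal summits, in the same order. A lncRNA gene was counted in a list when a summit lay within 1 kb of either of its ends. PPAR-alpha has a single library, no test between the antibodies was made, and intervals below are 95% Clopper-Pearson intervals (exact), for counting error alone.

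A lncRNA is a transcript longer than most small RNAs that is not translated into protein. Those lying between coding genes have their own promoters, or arise at enhancers, and some act in the nucleus, such as Malat1 in nuclear speckles and Neat1, the scaffold of paraspeckles. p53 is a transcription factor that binds DNA as a tetramer, with each pair of subunits on a half-site, and several lncRNAs, among them Trp53cor1 (lincRNA-p21) and Neat1, are known p53 targets. PPAR-alpha is a nuclear receptor that binds DNA with RXR and controls fatty acid oxidation.

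In 7 lncRNA genes with summits in both p53 lists, at least 1 summit fell inside the 300 bases of RefSeq promoter sequence, from 250 before to 50 after the annotated start. These promoters are shown because the deposited summits can be placed on them base by base. RefSeq sequence is of GRCm38.p6, 5′ to 3′ on the strand of the lncRNA, and capitals mark the summit bases with 5 bases on each side. For Gm38882 the window is chr6:117879383-117879682, plus strand, with all 3 summits inside, PPAR-alpha at base 3, p53 replicate 2 at base 32 and p53 replicate 1 at base 179. For 1300002E11Rik it is chr16:21794097-21794396, plus strand, with PPAR-alpha at base 223 and p53 replicate 1 at base 244. For C730014E05Rik it is chr16:23175030-23175329, plus strand, with p53 replicate 2 at base 35 and replicate 1 at base 41. For Gm13982 it is chr2:117417648-117417947, minus strand, with PPAR-alpha at base 150 and p53 replicate 1 at base 229. For Gm35425 it is chr3:35318187-35318486, plus strand, with p53 replicate 2 at base 199 and PPAR-alpha at base 238. For Gm2885 it is chr17:6827967-6828266, minus strand, with p53 replicate 2 at base 46. For 1700096K18Rik it is chr5:25529768-25530067, plus strand, with p53 replicate 2 at base 182.
Gm38882: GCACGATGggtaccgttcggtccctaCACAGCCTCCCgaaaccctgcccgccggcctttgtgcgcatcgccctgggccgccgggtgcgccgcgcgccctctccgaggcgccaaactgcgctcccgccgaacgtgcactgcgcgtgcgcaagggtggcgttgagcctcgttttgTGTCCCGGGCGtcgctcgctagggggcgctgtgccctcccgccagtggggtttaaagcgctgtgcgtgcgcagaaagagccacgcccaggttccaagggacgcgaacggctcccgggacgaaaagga
1300002E11Rik: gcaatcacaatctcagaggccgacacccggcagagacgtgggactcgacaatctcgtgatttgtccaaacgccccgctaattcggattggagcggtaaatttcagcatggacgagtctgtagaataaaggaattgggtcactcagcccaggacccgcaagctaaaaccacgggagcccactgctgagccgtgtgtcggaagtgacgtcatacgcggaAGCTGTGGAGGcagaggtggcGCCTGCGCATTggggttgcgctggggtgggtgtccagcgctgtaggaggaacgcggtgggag
C730014E05Rik: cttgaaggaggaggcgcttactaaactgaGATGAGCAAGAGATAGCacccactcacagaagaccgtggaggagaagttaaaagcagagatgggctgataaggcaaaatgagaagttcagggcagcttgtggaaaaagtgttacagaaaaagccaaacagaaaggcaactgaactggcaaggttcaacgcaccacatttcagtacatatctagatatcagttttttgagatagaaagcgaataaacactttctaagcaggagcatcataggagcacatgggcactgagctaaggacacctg
Gm13982: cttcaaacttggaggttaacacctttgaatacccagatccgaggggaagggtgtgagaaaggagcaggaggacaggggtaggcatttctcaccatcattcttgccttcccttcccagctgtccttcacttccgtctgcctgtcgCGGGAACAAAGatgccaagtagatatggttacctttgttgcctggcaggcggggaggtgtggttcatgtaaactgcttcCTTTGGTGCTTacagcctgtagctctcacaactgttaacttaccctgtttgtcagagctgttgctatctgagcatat
Gm35425: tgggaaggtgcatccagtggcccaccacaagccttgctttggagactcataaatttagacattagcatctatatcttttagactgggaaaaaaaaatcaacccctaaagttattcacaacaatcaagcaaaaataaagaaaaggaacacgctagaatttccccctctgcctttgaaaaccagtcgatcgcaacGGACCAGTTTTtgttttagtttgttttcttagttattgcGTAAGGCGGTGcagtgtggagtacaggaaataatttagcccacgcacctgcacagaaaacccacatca
Gm2885: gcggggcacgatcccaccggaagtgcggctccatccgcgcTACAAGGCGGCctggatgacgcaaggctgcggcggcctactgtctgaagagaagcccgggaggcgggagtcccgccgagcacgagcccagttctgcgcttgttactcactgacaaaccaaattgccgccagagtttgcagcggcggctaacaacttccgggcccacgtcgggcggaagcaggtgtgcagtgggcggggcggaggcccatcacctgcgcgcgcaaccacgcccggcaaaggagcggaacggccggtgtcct
1700096K18Rik: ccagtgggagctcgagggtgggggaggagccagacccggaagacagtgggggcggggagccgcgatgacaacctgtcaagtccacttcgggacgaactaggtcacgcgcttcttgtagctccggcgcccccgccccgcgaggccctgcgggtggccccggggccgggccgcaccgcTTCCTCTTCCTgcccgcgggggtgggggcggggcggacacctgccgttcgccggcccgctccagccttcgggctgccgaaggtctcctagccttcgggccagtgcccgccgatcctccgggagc

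These 7 promoters did not share 1 composition. Gm38882, 1700096K18Rik, Gm2885 and 1300002E11Rik held 40, 33, 33 and 23 CG dinucleotides, whereas Gm35425, Gm13982 and C730014E05Rik held 7, 5 and 4. They were searched on both strands for 7 motifs, counting overlapping matches: the p53 half-site, the nuclear receptor half-site AGGTCA, the ETS letters CCGGAAG, the RUNX letters TGTGGT, the TCF/LEF letters CTTTGAT, the GC box GGGCGG and the CCAAT box CCAAT. Gm2885 held 2 ETS matches, the first at base 17, and 3 GC boxes. 1700096K18Rik held an ETS match at base 36, an AGGTCA match at base 99 and 4 GC boxes. The RUNX letters stood at base 24 of Gm35425, base 190 of C730014E05Rik and base 202 of Gm13982, and 1300002E11Rik held 3 CCAAT boxes. None of the 7 promoters held the p53 half-site or the TCF/LEF letters, and Gm38882 held none of the 7 motifs. Of all 25748 genes with a promoter in the table, the p53 half-site was in 8.33%, AGGTCA in 16.0%, ETS in 9.30%, RUNX in 16.8%, TCF/LEF in 3.79%, the GC box in 36.3% and the CCAAT box in 37.9%. A match describes letters only.

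How often did isolated lncRNA genes carry a summit? In p53 replicate 1, 69 of the 6279 did, or 1.10% (0.856 to 1.39%), where 5.45% of all genes of the table had one. In p53 replicate 2 the count was 65, or 1.04% (0.80 to 1.32%), against 6.96% of all genes. PPAR-alpha summits lay at 79, or 1.26% (0.997 to 1.57%), against 5.46% of all genes. At least 1 list had a summit at 133 lncRNA genes, which is 2.12% (1.78 to 2.51%) beside 11.2% of all genes. Protein-coding genes had shares of 9.76%, 12.6% and 9.29% in the 3 lists, and the 6129 lncRNA genes overlapping or closer to coding genes had 4.91%, 6.36% and 5.32%. The intervals of the isolated lncRNA genes and of either other class did not overlap in any list. No test was made of these differences, since genes are not replicates.

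**Figure D1:**
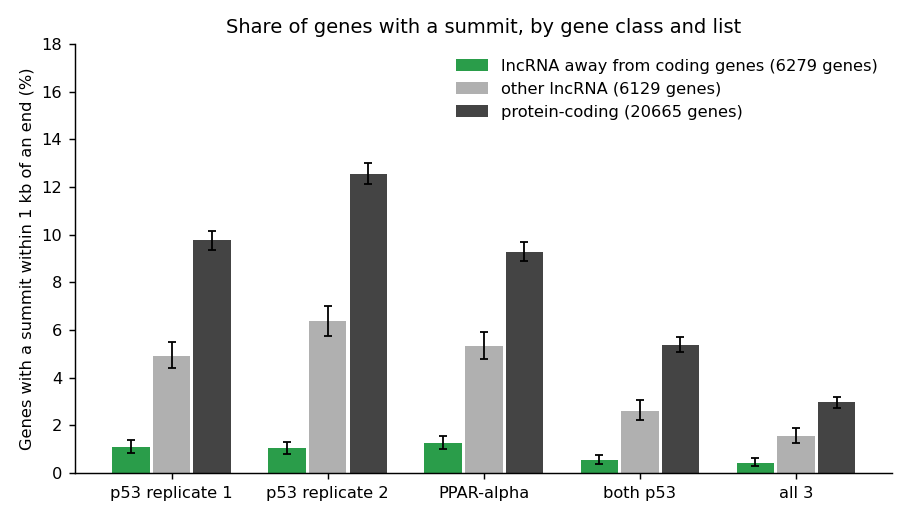
Bars give the percentage of genes with a summit within 1 kb of an end, for 3 gene classes in each list, in both p53 lists and in all 3 lists, and error bars are exact 95% intervals. The isolated lncRNA genes lie between 0.414% and 1.26%, under the other lncRNA genes and the coding genes in each column.

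Both p53 lists had a summit at 34 of the isolated lncRNA genes, or 0.541% (0.375 to 0.756%), against 3.0% of all genes. All 3 lists did so at 26, or 0.414% (0.271 to 0.606%), against 1.70% of all genes. The 34 were 49.3% (37.0 to 61.6%) of the replicate 1 genes and 52.3% (39.5 to 64.9%) of the replicate 2 genes. Each p53 list shared 36 genes with PPAR-alpha, which was 52.2% of replicate 1, 55.4% of replicate 2 and 45.6% of PPAR-alpha. Among protein-coding genes 55.1% of replicate 1 and 42.8% of replicate 2 were shared between the p53 lists, and 43.2% and 39.0% with PPAR-alpha. Of the 34 lncRNA genes in both p53 lists 76.5% (58.8 to 89.3%) were also in PPAR-alpha, beside 55.1% (52.2 to 58.1%) of 1110 such coding genes and 59.4% (51.3 to 67.1%) of 160 such other lncRNA genes. Of the 133 genes, 25 were in p53 replicate 1 alone, 21 in replicate 2 alone, 33 in PPAR-alpha alone, 8 in both p53 lists without PPAR-alpha, 10 in replicate 1 with PPAR-alpha and 10 in replicate 2 with PPAR-alpha.

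Summits at these lncRNA genes were few. They made up 1.83%, 1.54% and 1.93% of the autosomal summits of p53 replicate 1, replicate 2 and PPAR-alpha. Their median score was 3.99, 3.62 and 5.91, where the whole lists had 3.99, 3.62 and 4.70. All summits outside coding genes and over 5 kb from their ends had the same medians, 3.99, 3.62 and 5.91. The highest was 9.72 in p53 replicate 1, 15.3 in p53 replicate 2 and 28.1 in PPAR-alpha. Scores of 10 or more were held by 0 of the 66 summits in p53 replicate 1, where the autosomal list had 5.34%. In p53 replicate 2 they were held by 2 of the 73, or 2.74%, against 4.25%. In PPAR-alpha they were held by 13 of the 78, or 16.7%, against 15.9%. The 66 summits of p53 replicate 1 took only 12 distinct score values, so that small differences between its scores are single steps of this scale. Among summits outside coding genes and over 5 kb from their ends, those at ends of isolated lncRNA genes were 12.6% (9.84 to 15.7%) of 517 in p53 replicate 1. They were 10.5% (8.28 to 13%) of 688 in replicate 2 and 9.70% (7.73 to 12%) of 794 in PPAR-alpha, and a further 13.2%, 15% and 12.7% lay inside such genes away from the ends.

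Malat1 and Neat1 were the best known lncRNAs with summits in all 3 lists. Malat1 (chromosome 19, 5795690 to 5802672, minus strand) had scores of 3.99 and 2.97 in p53 replicates 1 and 2 and 7.88 in PPAR-alpha. Its summits lay 305, 468 and 740 bp upstream of the annotated start. Neat1 (chromosome 19, 5824708 to 5845480) had highest scores of 3.99 and 3.62 for p53 and 5.30 for PPAR-alpha, at 141, 245 and 255 bp from its end at the higher coordinate. Within the p53 lists these values were not high, since 44.7% of the replicate 1 summits scored less than either gene, and 30.3% and 48.8% of the replicate 2 summits scored less than Malat1 and Neat1. In PPAR-alpha 73.1% and 52.0% of the summits scored less. Neat1 lies 5.49 kb from the end of Frmd8.

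**Figure D2:**
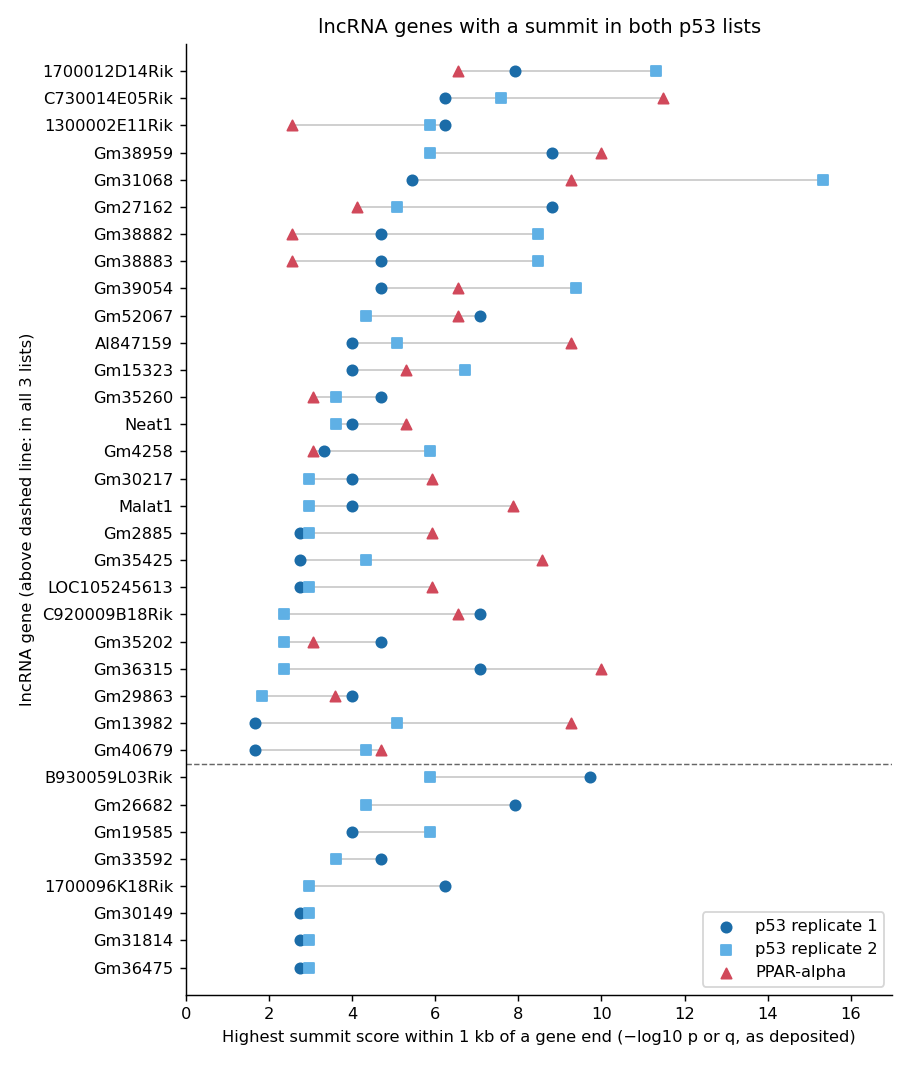
Each row is 1 of the 34 lncRNA genes with a summit in both p53 lists, and points give the highest deposited score (−log10 p or q) within 1 kb of its ends in each list. The 26 genes above the dashed line also have a PPAR-alpha summit, and p53 scores run from 1.68 to 15.3; scores of different lists are not on a common scale.

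Of the 26 genes, 4 scored 5 or more in each list: 1700012D14Rik, C730014E05Rik, Gm31068 and Gm38959. Gm31068 (chromosome 5, 142365670 to 142367200) had 5.45 in p53 replicate 1, 15.3 in p53 replicate 2 and 9.27 in PPAR-alpha. Its replicate 2 score exceeded 97.8% of that list. All its summits lay within 49 bp of each other beyond the 3′ end, 34.3 kb from Foxk1, a forkhead transcription factor gene. 1700012D14Rik (chromosome 7, 111117673 to 111122675) had 7.93, 11.3 and 6.55 in the same order, 34.6 kb from the translation factor gene Eif4g2. C730014E05Rik (chromosome 16, 23175280 to 23204377) had 6.24, 7.58 and 11.5 at summits spread over 41 bp, 17.3 kb from Adipoq, the adiponectin gene. Gm38959 (chromosome 11, 95854987 to 95858451) had 8.81, 5.88 and 9.995 with a spread of 90 bp, 5.11 kb from B4galnt2. A glutamine tRNA gene also ended within 1 kb of the Gm38959 summits, which cannot be assigned to 1 of the genes.

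The nearest coding genes of the 26 are given by their known roles, beginning with transcription factors. The neighbour was taken by distance alone, and no kind of neighbour was tested for being frequent. Gm27162 (chromosome 9, 32904069 to 32928966), 146 kb from the transcription factor gene Ets1, had 8.81 and 5.08 for p53 and 4.13 for PPAR-alpha. Gm52067 (chromosome 13, 28960253 to 28975517), 6.55 kb from Sox4, had 7.07 and 4.33 for p53 and 6.55 for PPAR-alpha. Gm30217, 24.1 kb from Tcf7, which encodes the T cell factor TCF1, had 3.99 and 2.97 for p53 and 5.91 for PPAR-alpha. Gm40679, 31.3 kb from the transcription factor gene Egr2, had 1.68 and 4.33 for p53 and 4.70 for PPAR-alpha. No autosomal summit of p53 replicate 1 scored lower than this 1.68. The p53 summits of these 4 genes lay 55, 401, 35 and 138 bp apart between the replicates.

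Kinases, phosphatases and other signalling genes were neighbours of a second set. Gm13982 lies 71.5 kb from Rasgrp1, a Ras activator downstream of the T cell receptor, and had 1.68 and 5.08 for p53 and 9.27 for PPAR-alpha. As at Gm40679, its 1.68 was the lowest autosomal score in p53 replicate 1. Gm4258, 99.8 kb from Ptprc, the gene of the phosphatase CD45, had 3.34, 5.88 and 3.06. LOC105245613 lies 140 kb from Pik3r1, a PI3-kinase regulatory subunit gene, with 2.74, 2.97 and 5.91. Its highest p53 summits are also those of Gm36475, and its PPAR-alpha summit lay near its opposite end, a spread of 2339 bp. Gm15323, 183 kb from the kinase gene Map3k1, had 3.99, 6.72 and 5.30. Every one of these 4 had a score below 4 in p53 replicate 1.

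The other genes in all 3 lists had nearest coding genes of varied roles. 1300002E11Rik (chromosome 16, 21794347 to 21809040) lies 6.51 kb from Ehhadh, which encodes a peroxisomal enzyme of fatty acid oxidation and is a known PPAR-alpha target. It had 6.24 and 5.88 for p53, with all 3 summits within 55 bp of its annotated start, and 2.57 for PPAR-alpha. That PPAR-alpha score was low, since only 5.80% of the autosomal PPAR-alpha summits scored less. Gm29863 had 3.99, 1.83 and 3.58. AI847159 (nearest coding gene Slc20a1) had 3.99, 5.08 and 9.27. Gm35425 (Atp11b, 425 kb away) had 2.74, 4.33 and 8.57, and Gm2885 (Ezr) had 2.74, 2.97 and 5.91. C920009B18Rik (H60b) had 7.07, 2.37 and 6.55 and Gm36315 (Cxxc5) had 7.07, 2.37 and 9.995. Gm39054 (Wnt11) had 4.70, 9.40 and 6.55, with ends of proline tRNA genes within 1 kb of its summits. Gm38882 and Gm38883 (Zfp239), which overlap on opposite strands, shared 4.70, 8.48 and 2.57. Gm35202 and Gm35260 (Ggta1) shared the summits of replicate 1 (4.70) and PPAR-alpha (3.06), with 2.37 and 3.62 in replicate 2. Because of such sharing the 26 genes stand for 24 loci and the 34 for 31.

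Of these 26 nearest coding genes, counted once for each lncRNA, 13 had no summit within 1 kb of their own ends in any list and the other 13 had one in at least 1 list, as had 20.1% of all coding genes. The distance to the nearest coding gene ran from 5.11 to 425 kb with a median of 25.7 kb.

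Which lncRNA genes had p53 in both replicates and no PPAR-alpha summit? There were 8. B930059L03Rik (chromosome 12, 110591374 to 110592679) had 9.72 in replicate 1, the highest of that list at any isolated lncRNA gene, and 5.88 in replicate 2, at summits 55 bp apart. It lies 8.30 kb from Ppp2r5c, a phosphatase subunit gene. Gm26682 (nearest coding gene Svil) had 7.93 and 4.33, and 1700096K18Rik (Cct8l1) had 6.24 and 2.97. Gm19585 lies 316 kb from Satb1, the chromatin organiser gene of thymocytes, and had 3.99 and 5.88 near its 3′ end, while a PPAR-alpha summit of 5.91 lay 1059 bp from that end, just outside the window. Gm33592 (Pip4k2a), with 4.70 and 3.62, had its highest p53 summits at opposite ends, 8962 bp apart. Gm30149 (Chd2), Gm31814 (Lpp) and Gm36475 (Pik3r1) each had 2.74 and 2.97. The p53 summits of Gm36475 are shared with LOC105245613, which was counted in all 3 lists. Within 2 kb Gm19585 and Gm30149 had summits in all 3 lists. The p53 summits of Gm31814 were only 2 bp apart.

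How close were the p53 summits to each other? Over the 34 genes the highest summits of the replicates lay a median of 142.5 bp apart, from 2 to 8962 bp. Those of 7 genes were within 50 bp, of 22 within 250 bp and of 30 within 500 bp. When a summit of each p53 list had to lie within 100 bp of the other, 14 genes remained of the 34. With a PPAR-alpha summit also within 100 bp, 5 of the 26 remained: 1300002E11Rik, C730014E05Rik, Gm31068, Gm36315 and Gm38959. Both p53 scores were 5 or more at 7 of the 34 genes, where 71.3% and 73.7% of all autosomal summits of replicates 1 and 2 scored under 5. The 7 were 1300002E11Rik, 1700012D14Rik, C730014E05Rik, Gm27162, Gm31068, Gm38959 and B930059L03Rik.

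Of 13 genes with a PPAR-alpha score of 10 or more, 6 were in that list alone, 2 also in p53 replicate 1, 4 also in replicate 2 and 1, C730014E05Rik, in all 3. Gm46567 (chromosome 16, 29813550 to 29815033) led with 28.1, its summit 496 bp inside the annotated start and 150 kb from Opa1. Next in PPAR-alpha alone came Gm30726 (175 kb from Nrip1, a nuclear receptor corepressor gene), Gm31992 (Slc16a10) and Gm51462 (Mef2a) with 18.01 each, then Gm41331 with 16.3 and Gm38734 with 11.5. Gm51537 had 9.995, Gm31987 and Gm32128, which share their summit, had 8.57, and so had Gm32298 beside tRNA genes. Gm27230 had 21.5 in PPAR-alpha and 4.33 in p53 replicate 2, at summits 106 bp apart. Gm46942 had 19.8 in PPAR-alpha and 8.81 in p53 replicate 1, 22 bp apart. Whether these genes lack p53 in the other replicate or fell under its calling threshold is not shown by the lists, which hold called summits only.

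Within each p53 list, scores were higher at genes that other lists shared. In p53 replicate 1 the median was 3.34 for the 25 genes of that list alone, 3.99 for 18 genes in 2 lists and 4.70 for the 26 in all 3, and in replicate 2 the medians were 2.97, 3.62 and 4.70. PPAR-alpha had 4.13, 7.88 and 5.91, so that its genes in 2 lists had the highest median. In p53 replicate 1 alone the top genes were Gm14486 and Gm34507 (7.93 each), Gm34269 and Gm41600 (5.45 each) and Gm31198 (4.70), which lies 11.2 kb from the lymphocyte receptor gene Cd96. In p53 replicate 2 alone they were Gm16619 (5.88) and, with 4.33 each, Gm32474, Gm36445, Gm46664, Gm9530 and Snhg5. The ranges overlapped between all these groups.

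Where on the lncRNA genes did the summits lie? A strand was known for 106 of the 133 genes, those with a promoter in the sequence table. The highest summit lay nearer the 5′ than the 3′ end in 40 of 51 genes in p53 replicate 1, or 78.4% (64.7 to 88.7%). It did so in 40 of 50 in replicate 2, or 80.0% (66.3 to 90.0%), and in 53 of 65 in PPAR-alpha, or 81.5% (70.0 to 90.1%). The median distance from the 5′ end was 407.5, 282 and 332 bp, and 12, 19 and 21 of these summits were within 250 bp. Upstream of the start lay 19 of 40, 18 of 40 and 31 of 53. Of the 19 genes in all 3 lists with a known strand, 16 had all highest summits nearer the 5′ end, the exceptions being Gm31068, Gm35260 and Gm38883.

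**Figure D3:**
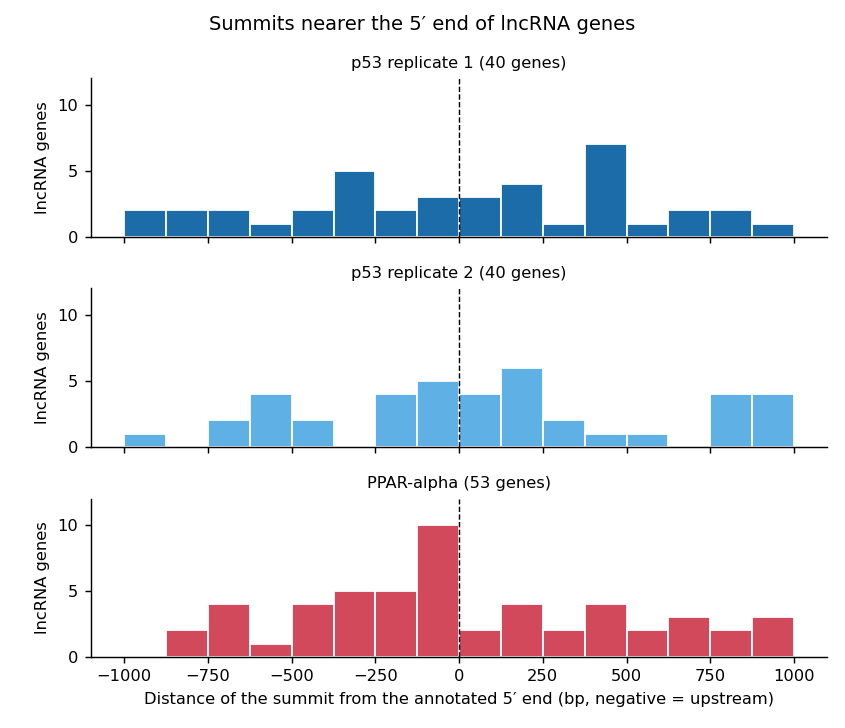
Histograms give, for each list, the distance in bp from the annotated 5′ end to the highest summit of lncRNA genes whose summit was nearer that end; upstream is to the left. Summits spread over the whole 1 kb on either side, with 40, 40 and 53 genes in p53 replicate 1, replicate 2 and PPAR-alpha.

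Promoters of lncRNA genes with a summit were richer in CG dinucleotides. The median number in 300 bases was 5 in the 106 promoters of genes with a summit (quartiles 3 and 13) and 3 in the 4652 without (2 and 5), and 30.2% against 7.14% held 10 or more. Median GC content was 50.7% against 46.7%. Coding genes with a summit had a median of 23 CG dinucleotides. By CG number, the share of lncRNA genes with a summit in at least 1 list was 1.08% (0.562 to 1.89%) at 0 to 1, 1.75% (1.23 to 2.42%) at 2 to 4 and 2.11% (1.38 to 3.07%) at 5 to 9. It was 4.61% (2.54 to 7.61%) at 10 to 19 and 30% (18.8 to 43.2%) at 20 or more, where 18 of 60 genes had one. In that last class 35.7% (34.5 to 36.9%) of coding genes had a summit, within the lncRNA interval. At 10 to 19 coding genes had 24.6% (23.2 to 26.1%), above the lncRNA interval. The 18 lncRNA genes included Snhg5, Mirc35hg, Gm34507, Gm9530 and, from those in both p53 lists, 1300002E11Rik, 1700096K18Rik, B930059L03Rik, Gm2885, Gm38882 and Gm39054.

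**Figure D4:**
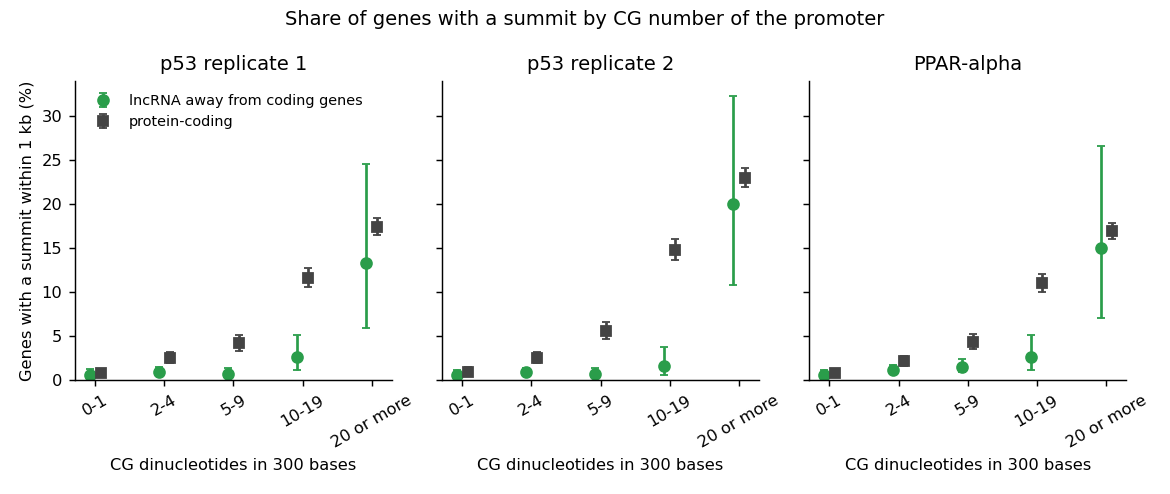
Points give the percentage of isolated lncRNA genes and of coding genes with a summit within 1 kb, against the number of CG dinucleotides in 300 bases of promoter, with exact 95% intervals, in each list. Among promoters with 20 or more the lncRNA genes had 13.3%, 20% and 15% in p53 replicate 1, replicate 2 and PPAR-alpha, and coding genes 17.5%, 23.0% and 16.9%.

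The p53 half-site was in the promoters of 4 lncRNA genes with a summit, Gm10433, Gm40491, Gm46116 and Gm51752, which is 3.77% of 106, where 10.9% of promoters without a summit held it. None of these 4 was in both p53 lists. AGGTCA was in 17.9% with and 20.1% without a summit, and in 18.5% of the promoters of PPAR-alpha genes. The ETS letters were in 8.49% against 2.73%, among them Gm46567, Gm15323, Gm2885 and 1700096K18Rik, and the GC box in 28.3% against 8.04%. RUNX letters were in 24.5% against 21.8% and TCF/LEF letters in 6.60% against 5.37%, while the CCAAT box was in 27.4% against 37.6%. These motifs differ in GC content, as do the promoters, and the part of base composition in the differences was not tested. Many summits also lay outside the 300 bases searched.

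With distance from coding genes the shares were lower beyond 50 kb. In p53 replicate 1, 1.82% (0.973 to 3.09%) of lncRNA genes 5 to 10 kb from a coding gene had a summit, 1.25% (0.754 to 1.95%) at 20 to 50 kb and 0.726% (0.407 to 1.20%) beyond 100 kb. In replicate 2 these shares were 1.68% (0.871 to 2.92%), 1.51% (0.962 to 2.26%) and 0.484% (0.232 to 0.889%). PPAR-alpha had 1.82% (0.973 to 3.09%), 2.04% (1.39 to 2.88%) and 0.775% (0.444 to 1.26%). Intervals at 20 to 50 kb and beyond 100 kb did not overlap in replicate 2 and PPAR-alpha and did overlap in replicate 1. Those at 5 to 10 kb and beyond 100 kb overlapped in all 3 lists. At 10 to 20 kb the interval overlapped that beyond 100 kb in replicate 1 and PPAR-alpha but not in replicate 2. The nearest coding gene itself had a summit in the same list for 18.8% (10.4 to 30.1%) of lncRNA genes with a summit in p53 replicate 1, and for 11% (10.2 to 11.8%) of those without. In replicate 2 these were 33.8% (22.6 to 46.6%) and 12.8% (11.9 to 13.6%), and in PPAR-alpha 21.5% (13.1 to 32.2%) and 10.2% (9.48 to 11%). The lncRNA genes with a summit also lay closer to that coding gene. Their median distance was 27.9 against 50.2 kb in replicate 1, 26.6 against 50.5 kb in replicate 2 and 27.9 against 50.4 kb in PPAR-alpha. The part of distance in these shares was not tested.

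**Figure D5:**
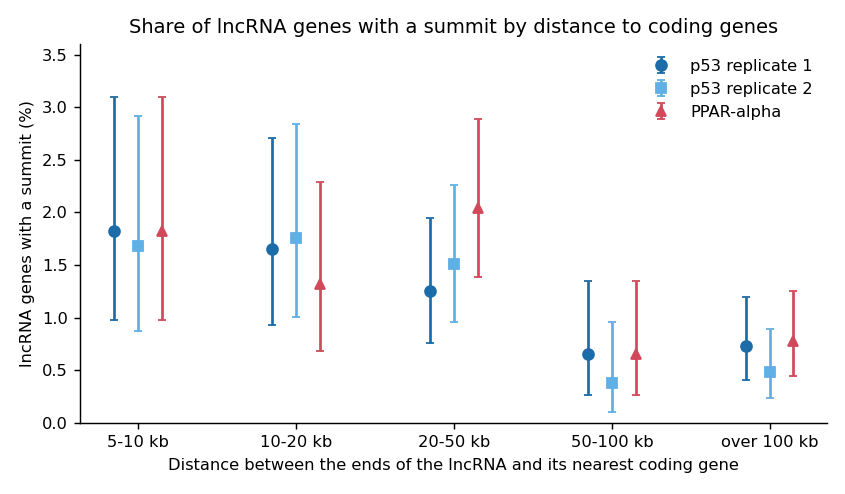
Points give the percentage of isolated lncRNA genes with a summit within 1 kb in each list, by the distance between their ends and those of the nearest coding gene, with exact 95% intervals. All points up to 50 kb lie at 1.25% or more and all points beyond at 0.775% or less.

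Other small genes shared some of these ends. A tRNA gene ended within 1 kb of 5 of the 133 lncRNA genes with a summit, or 3.76%, and of 13 of the 6146 without, or 0.212%. The 5 were 4930555B11Rik (6.24 in p53 replicate 1, 13.8 in PPAR-alpha), B230208H11Rik, Gm32298, Gm38959 and Gm39054. Gm31633 (2.18 in p53 replicate 1) had a tRNA gene end within 1 kb of its summit, although not of its own ends. Transfer RNA genes are short, so such a summit cannot be assigned to the lncRNA rather than the tRNA. Another lncRNA ended within 1 kb of 16.5% of those with a summit and of 9.94% of those without.

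The 4 lists of known lncRNAs hold 28 distinct isolated members, of which 6 had a summit in at least 1 list, beside 2.12% of all isolated lncRNA genes. Of 7 isolated lncRNAs described as p53 targets or partners, 3 had a summit, where 11.2% of all genes had one. Besides Malat1 and Neat1 this was Lncpint, which had 3.34 in p53 replicate 1 only. H19, Mir17hg, Pvt1 and Trp53cor1, which lies 11.9 kb from the arrest gene Cdkn1a, had none in any list. Of 18 isolated entries of the list of small nucleolar RNA and microRNA hosts, 3 had a summit. Mirt1 is counted as an entry, although among lncRNA genes with a summit only Mirc35hg held annotated mature microRNAs. Snhg5, a snoRNA host, had 4.33 in p53 replicate 2, Mirt1 had 3.99 in p53 replicate 1 and 3.58 in PPAR-alpha, and Mirc35hg, which holds the miR-182, miR-96 and miR-183 genes, had 2.11 in PPAR-alpha. The 15 without were H19, Mir100hg, Mir124-2hg, Mir124a-1hg, Mir17hg, Mir1a-1hg, Mir205hg, Mir217hg, Mir9-3hg, Mir99ahg, Mirg, Snhg11, Snhg17, Snhg20 and Snhg7os. Of 6 isolated entries of the list drawn up for T cells or thymus, Malat1 and Neat1 had summits and Dreh, Ifngas1, Mir17hg and Morrbid had none. Of 4 nuclear or abundant lncRNAs, Miat and Rmst had none beside Malat1 and Neat1. Tug1, Gas5, Dleu2, Snhg3, Snhg6, Snhg7, Snhg16 and Peg13 had summits but overlap coding genes or lie within 5 kb of them. Among these, Dleu2 had summits in all 3 lists and Snhg16 in both p53 lists. Oip5os1 (Cyrano), which is in none of these lists and was picked out after its value was seen, had 2.37 in p53 replicate 2.

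At the margin of the 1 kb window, Gm52067 (942 bp, p53 replicate 1) and Gm52815 (999 bp) were just inside and Gm40034 (1003 bp) and Gm32230 (1029 bp) just outside. In p53 replicate 2, Gm10433 (972 bp) and Gm30331 (975 bp) were inside, and summits at 1017 bp from Gm16619 and 1108 bp from Gm39714 outside. In PPAR-alpha, Gm32298 (984 bp) and Gm40491 (997 bp) were inside and Gm19585 (1059 bp) and Gm39676 (1062 bp) outside. Gm52067, Gm10433 and Gm40491 each had another summit of the same list inside the window. At the margin of the 5 kb separation, Gm38959 (5108 bp) and Mirc35hg (5182 bp) were kept and E230001N04Rik (4973 bp) and Gm4598 (4903 bp), which also had summits, were not.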

How the data were processed

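The authors deposited 1 list of summits per immunoprecipitated library, with a score in a unit no label states. From its form and range, the deposited score was taken for a −log10 p- or q-value. The submitters' processing notes name MACS2 2.1.2, Bowtie2 2.3.4.2 and Picard 2.9.0, with no roles. The sources used here give neither the threshold, the control nor the depth of a library. The input is not analysed here.

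Those notes name a human build for mouse tissue, so positions were checked against the RefSeq gene table of GRCm38.p6. Of the autosomal summits, 42.1% to 49.4% lay within 1 kb of a coding gene end in the 3 lists, and 6.49% to 8.07% after a move of 10 kb. Positions are counted from 1.

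Genes and nearest coding genes came from that table, and strand and sequence from the RefSeq promoter table, matched by gene identifier for 75.8% of the lncRNA genes (the start nearest the 5′ end). Python 3.11.15, numpy 2.4.6, pandas 2.3.3 and scipy 1.17.1 were used, and the window rules were tested on simulated data. Named were the lncRNA genes in both p53 lists (the 30 with the highest lower score and all in all 3 lists, which covered all 34), the 10 highest in PPAR-alpha alone, the 5 highest in each p53 list alone with ties, and the isolated members of 4 lists: small RNA hosts, p53 targets or partners, T cell or thymus lncRNAs, and nuclear or abundant lncRNAs. Other genes were named after their values were seen. Some neighbouring coding genes are not reported here. The members and lists were chosen with earlier results of these data known.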

Additional observations from a re-analysis of the deposited data

How the results depend on the processing

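With only summits scoring 5 or more, the counts of isolated lncRNA genes were 18 in p53 replicate 1, 20 in replicate 2, 48 in PPAR-alpha, 7 in both p53 lists and 4 in all 3. This cut left out 71.3%, 73.7% and 52.0% of the autosomal summits of p53 replicate 1, replicate 2 and PPAR-alpha. Within 500 bp of an end, both p53 lists met at 19 genes and all 3 at 11. With summits joined within 100 bp they met at 14 and 5. Near the 5′ end only, over the 4758 genes with a strand, an alternative chosen after seeing the data, the counts were 40, 42, 22 in both p53 lists and 17 in all 3, and 54 in PPAR-alpha. Without p53 replicate 1 or 2, genes in the remaining p53 list numbered 65 to 69, and those also in PPAR-alpha 36. The cause was not tested for the score; the other settings hold fewer windows, genes or libraries by construction. Each count stayed within 1.5 times with windows of 2 kb, a separation over 10 kb or loci counted in place of genes. The same held when dense runs (4 or more other summits within 10 kb) or lncRNA genes beside tRNA genes (chosen after seeing the data) were left out. Leaving out scores of 50 or more could change no count. The highest scores at these genes were 9.72, 15.3 and 28.1 in p53 replicate 1, replicate 2 and PPAR-alpha. Without dense runs, C920009B18Rik had summits in 2 lists and Gm4258 in 1. No paired analysis was possible because the PPAR-alpha library has no partner numbers and no test was run.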

Other observations

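On the sex chromosomes, which the 133 lncRNA genes leave out, the same rule took 176 isolated lncRNA genes on X and 30 on Y. None had a summit within 1 kb of an end in any of the 3 lists. Of the 3608, 4767 and 4070 summits in p53 replicate 1, replicate 2 and PPAR-alpha, however, 3597, 4750 and 4051 were autosomal. The lists thus held few summits on X and Y for genes of any kind, and a count of 0 there says little about lncRNA genes. Taking 3 counts as the limit that a count of 0 allows, the upper limit of the share was 1.70% on X and 10% on Y in each list, for counting error only.

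Across the autosomes, lncRNA genes with a summit in at least 1 list ranged from 1 of 316 on chromosome 14, or 0.316%, to 6 of 148 on chromosome 19, or 4.05%. Chromosome 2, which had the most isolated lncRNA genes (469), held 4 of the 26 genes in all 3 lists. Among these, Gm35202 and Gm35260 share a locus. Chromosomes 13 and 19 held 3 each. These counts are small, shares of all genes by chromosome are not given here, and no difference between chromosomes was tested.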
